A study of Mus musculus with 2 samples.

Results

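The vacuolar proton pump (V-ATPase) subunit genes described here are 6 of the 2381 gene rows that differed significantly between Trrap-deleted and control embryonic mouse cortex. They were taken by symbol: Atp6v1a, Atp6v1c1 and Atp6v1f of the catalytic V1 sector, Atp6v0c and Atp6v0e2 of the membrane V0 sector, and the accessory subunit Atp6ap2. RNA was sequenced from E14.5 cortices of B6/129 background embryos, with 1 library per genotype. The Trrap-deleted library came from TrrapF/F NestinCre+ embryos and the control library, entered as wild type, from TrrapF/+ NestinCre+ embryos, so both carried the Cre transgene and a floxed allele. Nestin-Cre acts in neural progenitors and their descendants, and cortical cells of other origin, such as microglia and meningeal cells, keep Trrap. Where Cre acts, the control can lose its floxed allele too and keeps the other, so it need not have full Trrap. How many embryos stand behind each library is not stated in the labels. Trrap was not among the listed rows, and its level could therefore not be used to check the genotypes.

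The V-ATPase is a rotary pump that spends ATP to move protons into lysosomes, endosomes, Golgi compartments and secretory vesicles. Its cytosolic V1 sector splits ATP and turns a shaft that drives the proton-carrying ring of the membrane-embedded V0 sector, and the sectors can come apart to switch the pump off. In neurons the proton gradient loads neurotransmitter into synaptic vesicles, and in all cells it activates lysosomal hydrolases. Trrap is the scaffold of several histone acetyltransferase complexes and a cofactor of Myc, a factor that binds E-boxes.

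The sequence before each start site is shown to let the promoters be compared with each other. A RefSeq promoter (GRCm38.p6) was found for 5 of the 6 genes. The 150 bases upstream of each start site are given 5′ to 3′ on the gene's strand, with the GC box GGGCGG (on either strand) and the E-box CACGTG in capitals. For Atp6v0c, with 3 start sites in the table, the site at the 5′ end of the gene was taken.
Atp6v1a, chr16:44139260-44139409, minus strand: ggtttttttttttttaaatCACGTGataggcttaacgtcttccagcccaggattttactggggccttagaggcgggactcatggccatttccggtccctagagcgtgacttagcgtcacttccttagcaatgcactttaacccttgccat
Atp6v1f, chr6:29467633-29467782, plus strand: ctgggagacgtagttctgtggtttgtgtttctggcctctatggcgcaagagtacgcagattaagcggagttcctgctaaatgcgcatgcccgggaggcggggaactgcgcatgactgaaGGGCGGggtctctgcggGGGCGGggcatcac
Atp6v0c, chr17:24169679-24169828, minus strand: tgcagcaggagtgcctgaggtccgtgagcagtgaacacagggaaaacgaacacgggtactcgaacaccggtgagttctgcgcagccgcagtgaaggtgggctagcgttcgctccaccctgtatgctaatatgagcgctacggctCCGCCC
Atp6v0e2, chr6:48537419-48537568, plus strand: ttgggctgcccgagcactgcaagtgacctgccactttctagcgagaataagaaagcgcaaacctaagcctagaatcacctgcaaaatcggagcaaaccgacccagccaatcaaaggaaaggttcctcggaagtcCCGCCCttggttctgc
Atp6ap2, chrX:12587609-12587758, plus strand: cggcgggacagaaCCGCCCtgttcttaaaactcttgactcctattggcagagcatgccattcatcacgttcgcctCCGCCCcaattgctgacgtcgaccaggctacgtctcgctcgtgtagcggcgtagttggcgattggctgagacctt

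The start site given for Atp6v1a lay 443 bases inside the 5′ end of the annotated gene, and the other 4 lay at it. GC content of these windows was 47.3% for Atp6v1a, 60.7% for Atp6v1f, 60.0% for Atp6v0c, 53.3% for Atp6v0e2 and 57.3% for Atp6ap2, beside a median of 54.0% over all 32851 promoters. Over 300 bases, from 250 before to 50 after the start, GGGCGG was present on either strand in 4 of the 5 promoters and in 35.7% of all promoters. It began at -31 and -14 in Atp6v1f, at -16 in Atp6v0e2, at -6 in Atp6v0c and at -137 and -75 in Atp6ap2. CACGTG was found in 1 of the 5, Atp6v1a, at -131, and in 7.15% of all promoters. That match was also the longer TCACGTGA, at -132, which 0.974% of all promoters held. None of the 5 held the palindromic CLEAR element of lysosomal genes (0.326% of all promoters), the Ets site CCGGAAG (8.86%), the cAMP response element TGACGTCA (1.79%) or the palindromic NRF1 site (0.971%), each searched on both strands. CACGTG lies within TCACGTGA and within the CLEAR element, so their matches overlap. These matches describe the letters in the windows.

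All 6 genes were listed higher in the Trrap-deleted cortex, by similar folds. Of all 2381 rows, 58.0% were higher, and among the 528 rows with a control level in the range of the 6 genes (23.3 to 85.1 FPKM) 42.6% were higher. Because the genes were chosen from this same contrast, these shares are printed as background and nothing is read from the count of 6. Values are the authors' deposited FPKM, fragment counts per transcript length and per library size, and a fold is Trrap-deleted over control. With 1 library per genotype there is no replicate error, no test between genotypes could be run, and the spread between embryos is unknown. In bulk cortex, more cells of a type and more RNA per cell cannot be told apart.

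Among V1 genes, Atp6v1a encodes the catalytic subunit A that binds and splits ATP. It had 48.6 FPKM in Trrap-deleted cortex, against 30.3 FPKM in control cortex, a log2 fold change of 0.68 (1.60-fold; mm9 chromosome 16, 44085513 to 44139818). Atp6v1c1 encodes subunit C, which joins the stalks that hold the sectors together and is released when they separate. Its level was 38.9 FPKM in Trrap-deleted cortex and 24.5 FPKM in control cortex, a log2 fold change of 0.67 (1.59-fold; chromosome 15, 38591659 to 38622198). Atp6v1f encodes subunit F of the rotating shaft. It reached 97.4 FPKM in Trrap-deleted cortex, against 57.9 FPKM in control cortex, a log2 fold change of 0.75 (1.68-fold; chromosome 6, 29417718 to 29420512).

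Among V0 genes, Atp6v0c encodes subunit c, the proteolipid that builds most of the proton-carrying ring. It was the most abundant of the 6 in both libraries, at 151 FPKM in Trrap-deleted cortex and 85.1 FPKM in control cortex, with a log2 fold change of 0.83 (1.78-fold; chromosome 17, 24300833 to 24306647). The annotation holds 2 Atp6v0c pseudogenes with which reads could be shared, so this level is uncertain. Atp6v0e2 encodes a small membrane subunit that is the brain-enriched form of subunit e. It had 71.5 FPKM in Trrap-deleted cortex, against 42.0 FPKM in control cortex, a log2 fold change of 0.77 (1.70-fold; chromosome 6, 48487568 to 48495273). The Atp6v0e2 locus in the table was 1.84 times as long as the annotated gene, so its row may take in other transcripts.

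Atp6ap2 encodes the accessory subunit also called the (pro)renin receptor, which takes part in assembling the pump. It had 36.4 FPKM in Trrap-deleted cortex, against 23.3 FPKM in control cortex, the lowest level of the 6 in both libraries and the smallest log2 fold change, 0.65 (1.56-fold). The gene is X-linked (chromosome X, 12164927 to 12194175), and the X-inactivation RNA Xist was at 142 FPKM in the Trrap-deleted library and 313 FPKM in the control library. Differing sex of the embryos and deletion of Trrap cannot be told apart here.

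**Figure D1:**
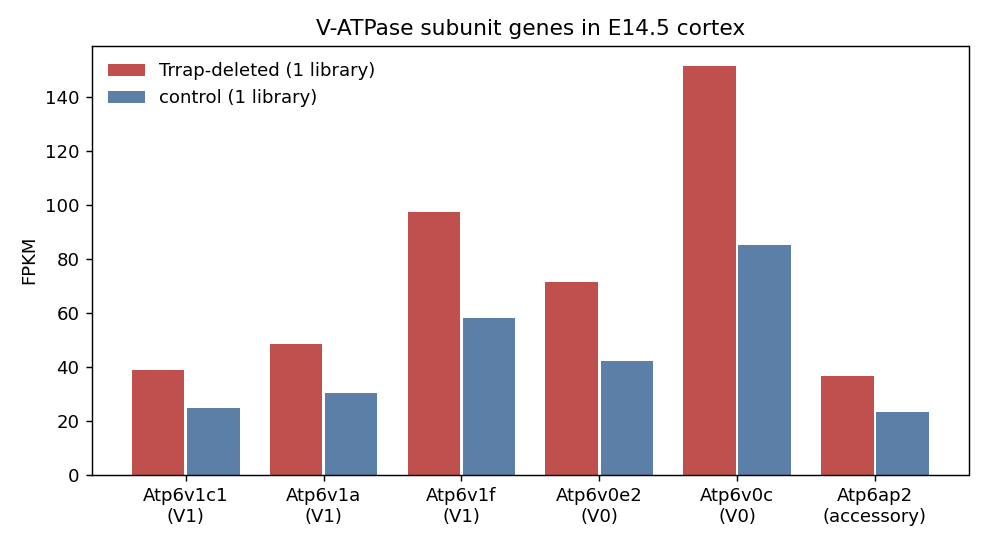
FPKM of the 6 V-ATPase genes, as 1 bar per library (Trrap-deleted left, control right), ordered by sector and then by control level. The Trrap-deleted bar is the taller in every pair, from 36.4 against 23.3 FPKM for Atp6ap2 to 151 against 85.1 FPKM for Atp6v0c.

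The order of the levels was the same in both libraries: Atp6v0c, Atp6v1f, Atp6v0e2, Atp6v1a, Atp6v1c1 and Atp6ap2, from high to low. FPKM is scaled for length, so levels can be set beside each other. The highest level was 4.16 times the lowest in Trrap-deleted cortex and 3.65 times in control cortex. Atp6v0c stood at 3.12 times Atp6v1a in Trrap-deleted cortex and 2.81 times in control cortex. Neighbours at the low end, Atp6v1c1 and Atp6ap2, were close in both libraries, and without replicates none of the steps in this order can be set against a spread.

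The log2 fold change had a median of 0.68 over the 3 V1 genes (0.67 to 0.75) and of 0.80 over the 2 V0 genes (0.77 and 0.83), a difference of -0.12. The sectors did not overlap, but the highest V1 value and the lowest V0 value lay only 0.02 apart. The 2-sided normal tail of the test statistic in the authors' deposited table matched their p-value to within 1% in 2260 of 2264 rows with a p-value large enough to compare. For the 6 genes the deposited statistic was negative while the log2 fold change was positive, so only its size was used. If that size is the fold change over its standard error, the implied standard errors on the log2 scale are 0.13 to 0.16 for single genes among the 6. These errors come from the authors' model and may not cover the spread between embryos, and whether further libraries entered the authors' test is not stated. The difference between the sectors has no error of its own here and was not tested. In summed levels, the V1 genes came to 184.8 FPKM in Trrap-deleted cortex and 112.7 FPKM in control cortex, and the V0 genes to 222.9 FPKM in Trrap-deleted cortex and 127.0 FPKM in control cortex.

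Among all 26 V-ATPase subunit symbols, 9 had a row in the table and all 9 rows were higher, where 58.0% of all rows were. Of these 9, 6 are the genes chosen from this same contrast, so nothing is read from the count. Besides the 6, Atp6v1g2, which encodes a neuronal form of the stator subunit G, had 14.8 FPKM in Trrap-deleted cortex, against 6.31 FPKM in control cortex (log2 fold change 1.23). Its fold exceeded that of both V0 genes, so with it the sectors no longer separate. Its locus in the table was 3.65 times as long as the annotated gene, and the gene overlaps Nfkbil1 on the opposite strand, so this value is uncertain. Atp6v0b, the second kind of ring proteolipid, shared a row with Dph2, at 188 FPKM in Trrap-deleted cortex and 105 FPKM in control cortex (log2 fold change 0.84). Atp6v0d1, which couples the ring to the shaft, shared a row with Agrp, at 77.6 FPKM in Trrap-deleted cortex and 48.2 FPKM in control cortex (log2 fold change 0.69). With these 3 rows added, the medians were 0.72 for V1 and 0.80 for V0, a difference of -0.09.

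The other 17 subunit symbols were not listed, among them Atp6v1b2 (the second subunit of the catalytic ring), Atp6v1h, Atp6v0a1 (the main neuronal form of the subunit that carries the proton channels), and Atp6ap1. For subunits with several forms, Atp6v1c1 was listed and Atp6v1c2 was not, Atp6v0e2 was listed and Atp6v0e was not, and Atp6v1g2 was listed and Atp6v1g1 was not. A locus that did not pass the authors' test and one that was not expressed are absent alike, so a missing symbol is not shown to be unchanged. Of 12 genes of V-ATPase assembly and regulation, Wdr7, one of the rabconnectin proteins that help to rejoin the sectors, had a row of its own, at 17.7 FPKM in Trrap-deleted cortex and 10.6 FPKM in control cortex (log2 fold change 0.75). Tbc1d24 shared a row with Ntn3, at 19.7 FPKM in Trrap-deleted cortex and 12.1 FPKM in control cortex (log2 fold change 0.71).

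**Figure D2:**
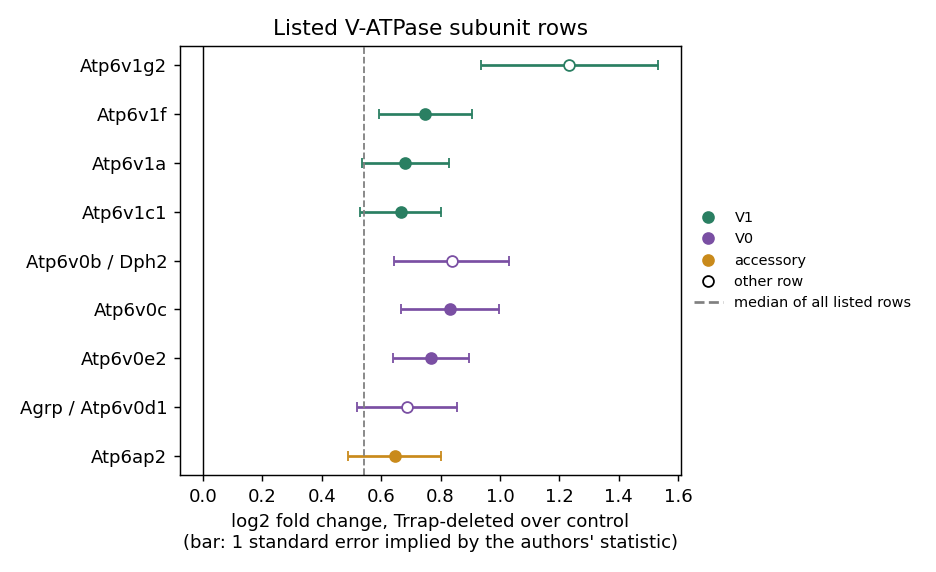
Log2 fold change (Trrap-deleted over control, horizontal axis) of each listed V-ATPase subunit row, coloured by sector; filled points are the 6 genes, open points other rows, bars 1 standard error implied by the authors' statistic, and the dashed line the median of all listed rows (0.54). The 6 genes lie between 0.65 and 0.83 with overlapping bars, and Atp6v1g2 lies apart at 1.23 with the widest bar.

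The folds were modest beside all rows that were higher, taken without regard to level. Each of the 6 was higher at a q-value under 0.01, as were 38.1% of all rows, and each was at least 1.5-fold higher, as were 47.2% of all rows and 22.5% of the 528 rows at similar control levels. The median of all rows that were higher was 1.88-fold, above every one of the 6. That median takes in rows at every level. Among the 528 rows at similar control levels, 225 were higher, and 119 of these were at least 1.5-fold higher. Beside those rows the 6 folds were not small. Of the 1382 higher rows, 26.2% had a smaller fold than Atp6ap2 and 43.7% a smaller fold than Atp6v0c. In mean level the 6 stood high, with 68.8% of rows below Atp6ap2 and 90.8% below Atp6v0c. In the authors' deposited table, Atp6v0e2 had the lowest q-value of the 6 (1.35e-07) and Atp6ap2 the highest (0.000994), against the table's threshold of 0.05; rows beyond it are not analysed here. After rescaling the libraries so that the median log2 fold change of all rows, 0.54, became 0, all 6 were still higher. Their folds were then 1.07 for Atp6ap2 to 1.22 for Atp6v0c. This says only that each lay above the median of the listed rows. The share of all rows still higher, 50.1%, is set by the rescaling itself.

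**Figure D3:**
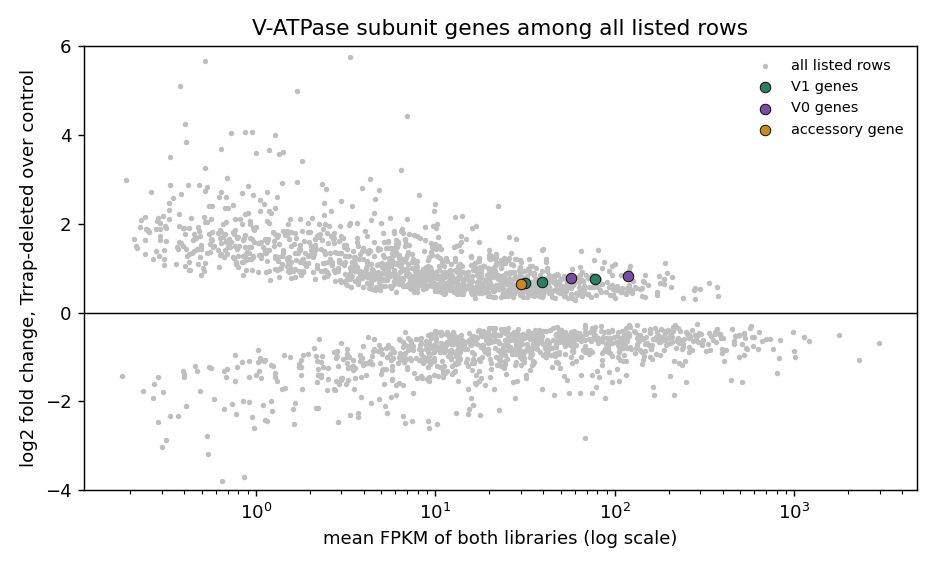
Log2 fold change (Trrap-deleted over control) against the mean FPKM of both libraries (log scale) for all listed rows in grey, with the 6 V-ATPase genes in colour by sector; 6 rows lie outside the plotted range of -4 to 6. The 6 genes form a compact group between 0.65 and 0.83, at control levels where 42.6% of rows are higher.

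Rows closest to each gene by distance in log2 FPKM over both libraries were taken as the most alike, which with 2 libraries says only that both values were close. For Atp6v1c1 these were Chga, a secretory granule protein (39.5 FPKM in Trrap-deleted and 24.4 FPKM in control cortex, distance 0.022), and Ralgps1 (distance 0.025). For Atp6v1a they were Sh3glb1 (distance 0.033) and Mbtps1, a Golgi protease (distance 0.056), and for Atp6v1f Alcam (0.049) and Lrpap1 (0.056). For Atp6v0c they were Hsbp1 (0.064) and the vesicle GTPase gene Rab3a (0.087), for Atp6v0e2 0610007C21Rik (0.086) and Rnf11 (0.095), and for Atp6ap2 Ndrg4 (0.047) and Cxx1b (0.050).

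Lysosomal genes, whose products work in the acid the pump makes, were mostly listed higher. Of 53 lysosomal symbols 21 were listed, 20 of them higher and 1 lower, where 58.0% of all rows were higher. Their median log2 fold change was 0.80, beside 0.54 over all rows, higher and lower together, and 0.72 over the 6 V-ATPase genes. As a fold this median was 1.74, below the 1.88 of all rows that were higher. Arsb, a sulfatase, had 11.6 FPKM in Trrap-deleted cortex, against 3.49 FPKM in control cortex. Gaa, the acid glucosidase that breaks down glycogen, had 42.6 FPKM in Trrap-deleted cortex, against 13.5 FPKM in control cortex. These folds, 3.34 for Arsb and 3.14 for Gaa, were past that of any of the 6. Sgsh, a heparan sulfamidase, had 2.33 FPKM in Trrap-deleted cortex and 0.823 FPKM in control cortex. Npc2, a cholesterol carrier picked out after the values were known, was the lower one, at 16.8 FPKM in Trrap-deleted cortex and 32.3 FPKM in control cortex. Microglia are rich in lysosomes, and all 11 listed of 19 microglial markers were higher, beside 58.0% of all rows, summing to 35.7 FPKM in Trrap-deleted cortex and 13.6 FPKM in control cortex, with none at 0. The listed lysosomal genes summed to 688 FPKM in Trrap-deleted cortex and 377 FPKM in control cortex. Ctss was on both lists; without it 19 of 20 listed lysosomal genes were higher. The part of microglia in these differences was not tested.

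Among genes that sense or use the proton gradient, directions were mixed. The V-ATPase works with the Ragulator complex to activate mTORC1 at the lysosome, and 3 of 21 such genes were listed, all higher, beside 58.0% of all rows. Mlst8, an mTORC1 subunit, had 18.1 FPKM in Trrap-deleted and 10.9 FPKM in control cortex, Lamtor2 of Ragulator 57.7 FPKM in Trrap-deleted and 35.9 FPKM in control cortex, and Tsc2, which restrains mTORC1, 31.96 FPKM in Trrap-deleted and 20.7 FPKM in control cortex. Of 10 transporters of the proton-coupled vesicular families, 2 were listed and they differed in direction. Slc17a7 (VGLUT1) had a log2 fold change of 1.20 and Slc17a6 (VGLUT2) one of -0.45. Of 25 synaptic vesicle genes 11 were listed, 9 of them higher and 2 lower, beside 58.0% of all rows higher. Their median log2 fold change was 1.14, above the 0.72 of the 6 V-ATPase genes. The largest values were those of Rab3b (1.84), Syn2 (1.29), Syt4 (1.22) and Sv2a (1.19). The mitochondrial ATP synthase is a rotary relative of the V-ATPase that makes ATP, and of 17 symbols of that complex only its inhibitor Atpif1 was listed, lower, at 117 FPKM in Trrap-deleted cortex and 194 FPKM in control cortex.

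**Figure D4:**
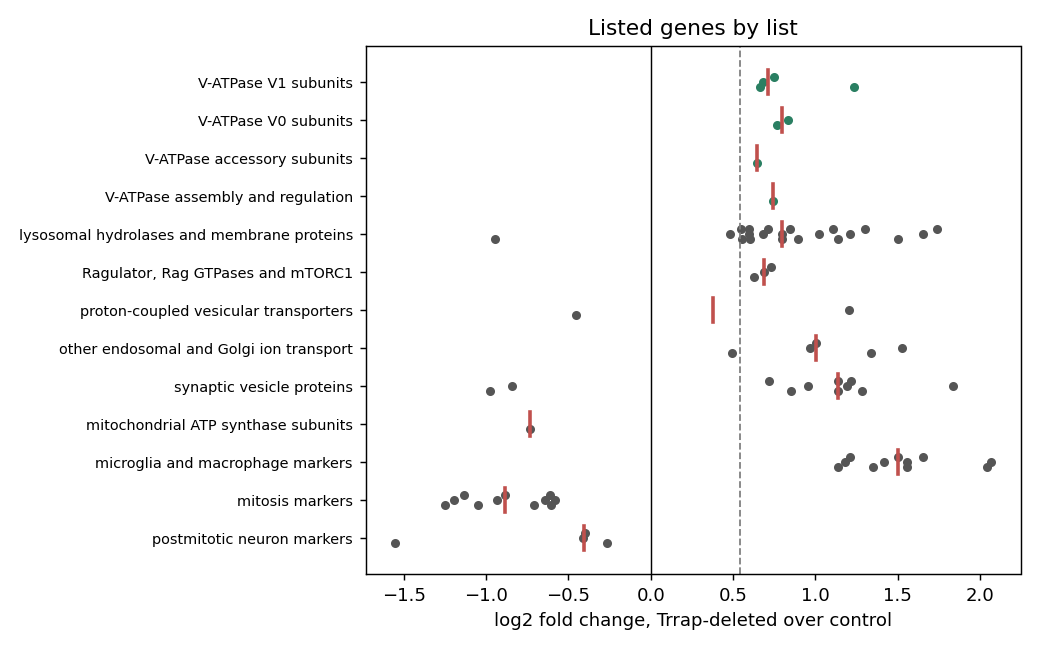
Log2 fold change (Trrap-deleted over control, horizontal axis) of each listed gene, by gene list; red bars are list medians and the dashed line the median of all listed rows (0.54). V-ATPase, lysosomal and synaptic vesicle genes lie mostly to the right of 0, with medians of 0.80 and 1.14 for the last 2, and mitosis markers to the left.

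Markers of cell composition moved in the same pair of libraries. All 11 listed of 20 mitosis markers were lower (summed level 265.5 FPKM in Trrap-deleted and 487.0 FPKM in control cortex), as were all 4 listed of 13 postmitotic neuron markers (384 FPKM in Trrap-deleted and 563 FPKM in control cortex), where 42.0% of all rows were lower. The log2 fold changes of these 4 neuron markers ran from -1.55 to -0.26. Neurod6, a cortical projection neuron gene and the least changed of the 4, had 259.9 FPKM in Trrap-deleted cortex and 312 FPKM in control cortex. Of 12 progenitor markers 4 were listed, 2 higher and 2 lower. Of 14 meningeal markers 7 were listed, 6 of them higher, with a median of 7.40-fold over the 7. These 6 summed to 16.3 FPKM in Trrap-deleted cortex and 2.84 FPKM in control cortex, while Fn1, named after its value was seen, had 12.2 FPKM in Trrap-deleted and 19.9 FPKM in control cortex. The 3 listed Y-linked transcripts lay at 3.99 to 32.8 FPKM in the Trrap-deleted library and at 0.00414 to 0.111 FPKM in the control library. Xist was lower in the Trrap-deleted library but still present, at 142 FPKM. Y-linked transcripts and Xist together point to embryos of both sexes in the Trrap-deleted library, so the libraries differed in their mix of sexes. No pseudogene of a V-ATPase subunit and none of 6 markers of osteoclasts and intercalated cells, which use the pump to acidify their surroundings, was listed. The part of these shifts in the V-ATPase values was not tested.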

How the data were processed

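RNA sequencing of E14.5 cortex gave 2 libraries, 1 per genotype. Reads were aligned with TopHat2 to mm9, per the submitters' processing notes; the sources used here do not name the software for counting and testing. The deposited values were read as FPKM from the table's layout, since its header does not write the unit. The log2 fold change column deposited by the authors, treated as a score because rows at 0 hold a placeholder, equalled log2 of KO over CONTROL to within 1.18e-05. The p-value and q-value are those the authors deposited, and the table holds only rows they marked significant, with no read totals, so the depth is unknown. Whether libraries beyond these 2 entered that test is not stated.

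Log2 of the FPKM ratio was computed with pandas 2.3.3 and numpy 2.4.6, and the normal tail with scipy 1.17.1. Gene positions are those of the table (mm9), made 1-based; GENCODE M21 and RefSeq (GRCm38) served for names, gene lengths and promoters. A symbol with several rows was represented by its most abundant row, and lists do not use the 59 rows that hold several symbols. The 6 genes, the 18 gene lists and the motifs were chosen with earlier results of these data known, from textbook knowledge. Named genes were the 6, other V-ATPase rows, up to 4 genes per list with the largest difference and the 2 nearest rows per gene. The values of 1 gene that this rule names are not reported here. The alternatives were other scalings, log2(FPKM + 1), stricter q-values and other choices of members. The rescaling and motif search were tested on simulated data.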

Additional observations from a re-analysis of the deposited data

How the results depend on the processing

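Values were called moved where they shifted by more than the standard error implied by the authors' statistic, and counts where they changed by over 1.5 times; 49 of 73 alternative values did neither, and none reversed. Rescaling subtracts the same amount from every log2 value, so it moved every fold change and could not change the difference between V1 and V0. Such values, fixed in advance, are among the 49. Rescaled to a median of 0, the log2 fold changes were 0.10 for Atp6ap2, 0.12 for Atp6v1c1, 0.14 for Atp6v1a, 0.21 for Atp6v1f, 0.22 for Atp6v0e2 and 0.29 for Atp6v0c, with medians of 0.14 for V1 and 0.26 for V0. Rescaled by summed FPKM they were 0.99 for Atp6ap2, 1.01 for Atp6v1c1, 1.03 for Atp6v1a, 1.10 for Atp6v1f, 1.11 for Atp6v0e2 and 1.18 for Atp6v0c, with medians of 1.03 for V1 and 1.15 for V0. A fold of at least 1.5 held for 0 of the 6 genes after rescaling to a median of 0, a combination added after the data were seen, as was adding other V-ATPase rows. This count follows from subtracting 0.54 from log2 values of at most 0.83. The median is that of rows marked significant, higher and lower together, so it is not a reference for no change.

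At a q-value under 0.01, 13 of 21 lysosomal, 1 of 2 vesicular transporter, 6 of 11 microglial and 1 of 4 postmitotic neuron genes remained listed. At 5 FPKM or more in the higher library, 3 of 5 endosomal ion transport, 2 of 11 microglial and 2 of 7 meningeal genes remained. No paired analysis was possible because each genotype had 1 library. The depth of the libraries is unknown, so no detection limit could be set.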

Other observations

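Other ion transport genes of endosomes and the Golgi, several of which work beside the proton pump, were also listed higher. Of 14 symbols 5 were listed and all 5 were higher, where 58.0% of all rows were, with a median log2 fold change of 1.01. Tmem175, a lysosomal channel that lets protons and potassium out, had 22.2 FPKM in Trrap-deleted cortex, against 11.1 FPKM in control cortex. Tpcn1, an endosomal cation channel, had 17.9 FPKM in Trrap-deleted cortex and 9.16 FPKM in control cortex. The organellar sodium-proton exchanger genes Slc9a7 (4.24 FPKM in Trrap-deleted and 1.68 FPKM in control cortex) and Slc9a9 (0.733 FPKM in Trrap-deleted and 0.255 FPKM in control cortex) were at low levels. Clcn3, a chloride-proton exchanger named after its value was seen, had 41.2 FPKM in Trrap-deleted cortex, against 29.2 FPKM in control cortex, and after rescaling to a median of 0 it was the 1 of the 5 that was no longer higher.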
